A study of Homo sapiens with 4 samples.

Results

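CDK19 was 1 of 2548 genes measured by name on 4 arrays of LNCaP cells, and a single probe set carried its symbol. It encodes a cyclin-dependent kinase, an alternative to its close paralog CDK8 as the kinase of the Mediator complex. Cells received an siRNA against the antisense long noncoding RNA POTEF-AS1 (siPOTEF-AS1) or a control siRNA (siControl), and were treated with dihydrotestosterone (DHT), the potent natural androgen, or with ethanol vehicle. The groups, with 1 array each, were siPOTEF-AS1 with 10 nM DHT, siPOTEF-AS1 with vehicle, siControl with 10 nM DHT and siControl with vehicle. LNCaP is an established, androgen-responsive human prostate cancer cell line, so that all values come from a single line. All cells were first kept in hormone-stripped serum for 3 days and were transfected 48 h before the hormone was added. CDK19 was chosen by its siPOTEF-AS1 differences, since its signal was higher on both siPOTEF-AS1 arrays than on the matching siControl arrays. Those differences are therefore given as a description, with no test.

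Mediator is a large complex that passes signals from DNA-bound transcription factors to RNA polymerase II. Its kinase module, made of CDK8 or CDK19 with cyclin C, MED12 and MED13, attaches to the core complex reversibly and phosphorylates transcription factors and parts of the transcription machinery. In prostate cancer CDK19 is known for higher expression in advanced disease than in benign tissue, and inhibitors of both Mediator kinases have been studied there.

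In the table the CDK19 probe set is assigned to ENST00000368911 of gene ENSG00000155111, on the minus strand of chromosome 6, 110931181 to 111136519 (GRCh37), a span of 205339 bases with exons and introns. It is not marked there as cross-hybridising. The RefSeq promoter table, on the other build GRCh38.p14, listed 3 transcription starts for CDK19. The span above was not matched to these starts across the builds. The 250 bases before the outermost start are shown, with CCAAT and GC boxes (GGGCGG) in capitals (chr6:110815856-110816105, minus strand).
CDK19 upstream: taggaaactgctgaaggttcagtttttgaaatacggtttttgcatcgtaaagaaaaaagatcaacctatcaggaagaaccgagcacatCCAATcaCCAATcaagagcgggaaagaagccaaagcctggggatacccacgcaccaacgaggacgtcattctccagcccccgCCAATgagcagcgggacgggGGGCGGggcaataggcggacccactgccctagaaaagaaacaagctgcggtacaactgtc
On either strand this window held 3 CCAAT boxes, beginning 162, 155 and 80 bases before the start, and 1 GC box at 60 bases. Among the 35116 windows of the same length in the table, 32.0% held a CCAAT box and 42.6% a GC box. The windows before the other two starts held no CCAAT box, and the innermost held 3 GC boxes. The full androgen response element searched, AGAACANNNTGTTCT, was in none of the 3 CDK19 windows and in 1 of all 35116. Its first hexamer AGAACA, which is part of the full element, was in none of the 3 either and in 12.4% of all windows. These letters say nothing of androgen receptor binding elsewhere in the locus.

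The deposited values are log2 signals made with RMA, which gives the arrays a common distribution. CDK19 had log2 signals of 10.06 in siPOTEF-AS1 DHT cells, 10.20 in siPOTEF-AS1 vehicle cells, 9.46 in siControl DHT cells and 9.51 in siControl vehicle cells. On the linear scale the signals were 1065, 1179, 705 and 730 in the same groups. Both siPOTEF-AS1 arrays lay above both siControl arrays, and the groups by hormone overlapped. In RNA from a whole culture, a change in the share of cells that express CDK19 and a change of its RNA per cell cannot be told apart. Each value was at least 2.64 above a log2 signal of 6.82, the median of all values of annotated probe sets, which served as the brightness floor. A probe set counted as expressed where its highest value reached that floor, and 13747 annotated probe sets did.

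**Figure D1:**
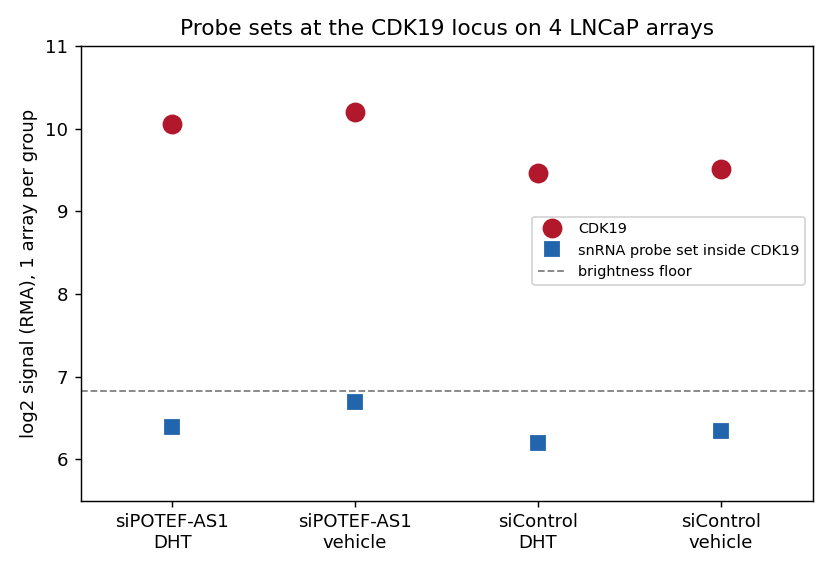
Log2 signal (vertical axis) of CDK19 and of the snRNA probe set that lies inside its span, in the 4 groups of 1 array each (horizontal axis), with the brightness floor dashed. CDK19 stands at 10.06 and 10.20 on the siPOTEF-AS1 arrays, against 9.46 and 9.51 on the siControl arrays, and the snRNA probe set stays below the floor of 6.82 on all 4.

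In order of level, siPOTEF-AS1 vehicle came first, then siPOTEF-AS1 DHT, siControl vehicle and siControl DHT. The first gap was 0.15 and the last 0.05 on the log2 scale. As many as 60.1% and 80.7% of expressed probe sets were at least that far apart on the same arrays. That spread is over different probe sets and includes any DHT responses. With 1 array per group the spread between like arrays was not measured. The middle gap, between siPOTEF-AS1 DHT and siControl vehicle, was 0.54, or 2.19 robust SDs of that difference over all expressed probe sets (the robust SD is the scaled median absolute deviation). It was reached by 10.4% of them. These arrays differ in both siRNA and hormone. The gap includes the siPOTEF-AS1 difference in DHT by which CDK19 was chosen, so that nothing is read from its place.

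With siPOTEF-AS1, CDK19 was higher by 0.59 on the log2 scale in DHT, or 1.51-fold, and by 0.69 in vehicle, or 1.62-fold. The mean of both pairs was 0.64 ± 0.05, or 1.56-fold, where the error is the distance of either pair from the mean and cannot separate noise from a true effect of hormone. The robust SD of the same difference over expressed probe sets was 0.15 in DHT and 0.15 in vehicle, so that CDK19 lay 3.90 and 4.67 of these from 0. Its difference in DHT had rank 66 from the top of 13747, and that in vehicle rank 26. CDK19 was chosen by these differences, so that nothing is read from their distance from 0 or from these ranks.

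Being high in both pairs cannot be more common than being high in either. At 1.5-fold, 0.509% of expressed probe sets were higher with siPOTEF-AS1 in DHT and 0.32% in vehicle, against 0.0218% in both. The last share is 3 probe sets, of which CDK19 was the only one with a gene name and 1 of 1344 expressed named genes (0.0744%). As both pairs served to choose CDK19, nothing is read from its place there. In DHT it passed 1.5-fold, which is 0.58 on the log2 scale, by a narrow margin, and it fell short at 0.57 when the arrays were centred on their medians. The other two were annotated only by UCSC transcript identifiers that the tables used here do not pair with a gene. The first, uc002ymn.3, had log2 signals of 9.04 in siPOTEF-AS1 DHT cells and 9.14 in siPOTEF-AS1 vehicle cells, against 8.23 in siControl DHT cells and 8.33 in siControl vehicle cells. It was 0.81 higher in DHT and 0.80 higher in vehicle. The second, uc001pto.2, was higher by 0.63 and 0.60. Both were named after their values were seen. In these 3 probe sets the pairs differed by less than 0.1 on the log2 scale. Another 11 probe sets were at least 1.5-fold lower in both pairs, so that 0.102% passed in the same direction.

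**Figure D2:**
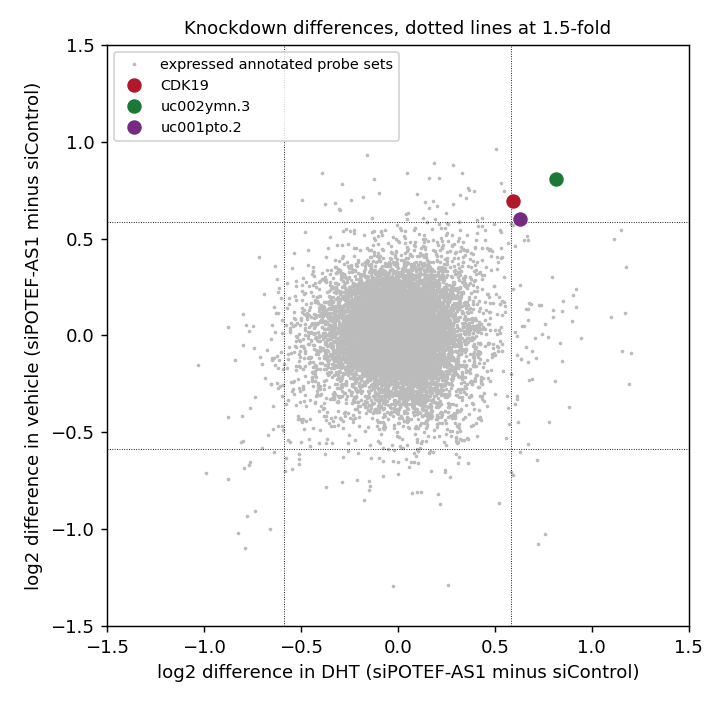
Log2 difference of siPOTEF-AS1 minus siControl in DHT (horizontal axis) and in vehicle (vertical axis) for the 13747 expressed annotated probe sets (grey points), with dotted lines at 1.5-fold. CDK19, at 0.59 and 0.69, and the probe sets uc002ymn.3 and uc001pto.2 are the 3 points in the upper right corner beyond both lines.

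Among named genes CDK19 ranked second by the mean of both pairs. The gene above it was TNFSF18, which encodes a ligand of the tumour necrosis factor family. TNFSF18 was higher by 1.18 in DHT and by 0.35 in vehicle, a mean of 0.77 ± 0.41, and both its DHT signals, 6.49 in siPOTEF-AS1 cells and 5.31 in siControl cells, lay below the floor. ID2, an inhibitor of helix-loop-helix transcription factors, followed CDK19 with a mean of 0.58 ± 0.30. Next came SP140L, a nuclear body gene, with 0.56 ± 0.65, and AGR2, a disulfide isomerase gene, with 0.56 ± 0.35. Both vehicle signals of AGR2, 6.25 in siPOTEF-AS1 cells and 6.05 in siControl cells, lay below the floor, so that its vehicle pair is not shown to be above background. The pairs of these 4 genes lay farther apart than those of CDK19, whose error was 0.05. As CDK19 was chosen for alike pairs, nothing is read from that contrast.

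CDK19 differed little between the DHT and vehicle arrays in either arm, with 1 array per group. Its signal with DHT differed by -0.15 on the log2 scale in siPOTEF-AS1 cells, or 1.11-fold lower, and by -0.05 in siControl cells, or 1.04-fold lower, with a mean of -0.10 ± 0.05. With the arrays centred on their medians the siControl value was -0.011, and with the intensity trend of the differences removed the mean was -0.061. The differences of -0.15 and -0.05 lay within the robust SD of the DHT difference over expressed probe sets, 0.28 in siPOTEF-AS1 cells and 0.21 in siControl cells. That spread is over different probe sets and includes any DHT responses, so that it does not measure the spread between like arrays. A small effect of DHT on CDK19 cannot be told from noise here. As background, 5.4% of expressed probe sets were at least 1.5-fold lower with DHT in siPOTEF-AS1 cells and 3.26% in siControl cells, while 4.02% and 3.98% were higher. In both arms together 2.25% were lower and 2.86% higher. CDK19 was among none of these. The DHT response of siPOTEF-AS1 cells minus that of siControl cells was -0.10, or -0.17 with centred arrays and -0.055 with the trend removed. The robust SD of this difference was 0.21, and 64.5% of expressed probe sets were at least as far from 0. By construction this difference is also the gap between the siPOTEF-AS1 differences in DHT and in vehicle. The choice of CDK19 for alike pairs kept that gap small, so that nothing is read from its place. No model p-value is given for DHT, because CDK19 was chosen for alike pairs and that choice makes the residual of a model over 4 arrays small.

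**Figure D3:**
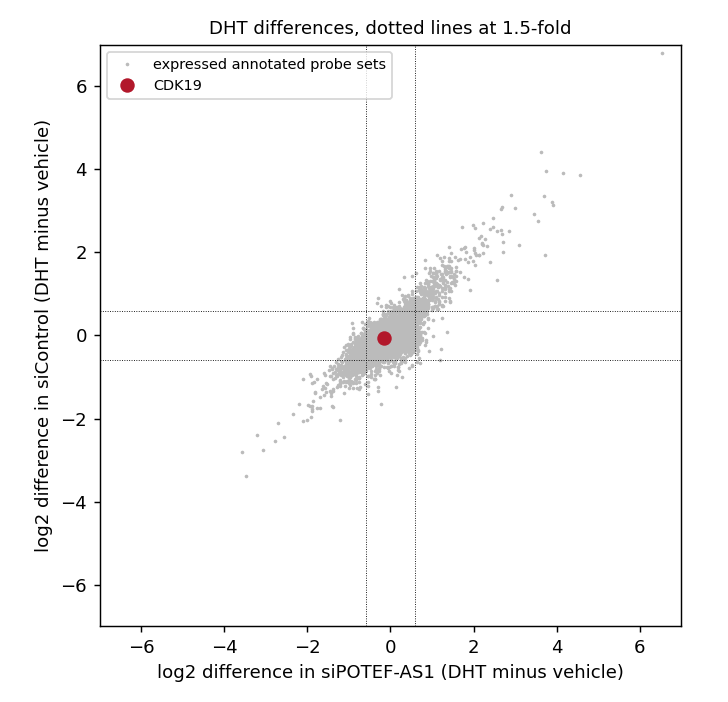
Log2 difference of DHT minus vehicle in siPOTEF-AS1 cells (horizontal axis) and in siControl cells (vertical axis) for the 13747 expressed annotated probe sets (grey points), with dotted lines at 1.5-fold. CDK19, at -0.15 and -0.05, lies inside the central cloud while DHT-responsive probe sets stretch along the diagonal.

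Inside the span of CDK19, on the same strand, the table placed 1 further probe set, for a small nuclear RNA (ENSG00000200522; chromosome 6, 111043453 to 111043551, minus strand, GRCh37, 99 bases long). Its log2 signals were 6.39 in siPOTEF-AS1 DHT cells and 6.69 in siPOTEF-AS1 vehicle cells, against 6.20 in siControl DHT cells and 6.34 in siControl vehicle cells. All 4 were below the floor and are not shown to lie above background. It was higher with siPOTEF-AS1 by 0.19 in DHT and by 0.35 in vehicle, and with DHT it differed by -0.30 in siPOTEF-AS1 cells and by -0.15 in siControl cells. Each of these 4 differences had the sign of that of CDK19, but with all signals below the floor nothing is read from this. As this probe set is not among the expressed ones, its differences are not placed against theirs. Whether it reads the CDK19 transcript was not tested.

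Within 1 Mb of CDK19 the table gave positions for 7 other probe sets, all of small RNAs. Most probe sets carry no position there, so that protein-coding neighbours are not analysed here. Only 1 of the 7 reached the floor, a miscellaneous RNA (ENSG00000241162; chromosome 6, 110761202 to 110761506, minus strand, GRCh37) beyond the 3′ end of the gene. Its log2 signals were 7.48 in siPOTEF-AS1 DHT cells and 7.07 in siPOTEF-AS1 vehicle cells, against 7.40 in siControl DHT cells and 7.47 in siControl vehicle cells. It thus differed by 0.08 with siPOTEF-AS1 in DHT and by -0.39 in vehicle, where CDK19 was higher.

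The rest of the kinase module could not be followed. None of CDK8, cyclin C (CCNC), MED12, MED12L, MED13 and MED13L was measured under its name, nor was any of 10 genes of RNA polymerase II, coactivators, the androgen receptor and its partner FOXA1. Of 26 genes of the Mediator head, middle and tail, 2 were. MED8, a subunit of the head that contacts the polymerase, had log2 signals of 8.85 in siPOTEF-AS1 DHT cells and 8.64 in siPOTEF-AS1 vehicle cells, against 8.81 in siControl DHT cells and 8.61 in siControl vehicle cells. It was 0.04 and 0.03 higher with siPOTEF-AS1, and 0.21 and 0.20 higher with DHT. MED7, a subunit of the middle, had 7.87 and 8.08, against 7.88 and 8.04 in the same order. It differed by -0.01 and 0.03 with siPOTEF-AS1 and by -0.21 and -0.16 with DHT. Both core subunits stayed within the robust SD of the siPOTEF-AS1 difference, 0.15. As CDK19 was chosen by that difference, no contrast with it is read from these 2 genes.

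Of the 24 other cyclin-dependent kinase genes on the list, CDK11B was measured. It encodes a kinase of transcription and splicing and shares most of its sequence with its copy CDK11A, so that their signals cannot be told apart. Its probe set with the highest mean was 0.20 higher with siPOTEF-AS1 in DHT and differed by -0.01 in vehicle. Cyclin L2 (CCNL2), a partner of CDK11 in splicing, was 0.22 and 0.12 higher on one probe set and 0.20 and 0.10 higher on the other. The atypical cyclin CCNG2, which is linked to cell cycle arrest, had log2 signals of 9.55 in siPOTEF-AS1 DHT cells and 10.15 in siPOTEF-AS1 vehicle cells, against 9.45 in siControl DHT cells and 10.08 in siControl vehicle cells. It differed by -0.60 and -0.62 with DHT, past 1.5-fold lower in both arms, and was 0.10 and 0.08 higher with siPOTEF-AS1. CCNG1, a p53 target, differed by -0.35 and -0.17 with DHT, and by -0.14 and 0.05 with siPOTEF-AS1. Neither CDK11B nor any of the 3 cyclin genes reached 1.5-fold with siPOTEF-AS1 in either hormone. Of all expressed probe sets 0.509% were higher and 0.502% lower by that much in DHT, and 0.32% and 0.516% in vehicle, so that no contrast with CDK19 is read from these few genes.

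Mediator kinases are known to act at serum-induced and immediate early genes, and 4 of 14 such genes were measured. JUN, a subunit of the transcription factor AP-1, had log2 signals of 9.06 in siPOTEF-AS1 DHT cells and 9.71 in siPOTEF-AS1 vehicle cells, against 8.66 in siControl DHT cells and 9.43 in siControl vehicle cells. JUN was 0.40 higher with siPOTEF-AS1 in DHT and 0.29 in vehicle, below 1.5-fold, and differed by -0.65 and -0.76 with DHT, past 1.5-fold lower in both arms. The orphan nuclear receptor gene NR4A1 differed by -0.15 and 0.15 with siPOTEF-AS1 and was 1.12 and 1.43 higher with DHT. IER3, a stress-induced survival gene, and CTGF, which encodes a matricellular protein, differed by less than 1.5-fold in all 4 comparisons. CTGF reached the floor on 1 array and IER3 on 3. The median of the 4 genes with siPOTEF-AS1 was 0.05 in DHT and 0.02 in vehicle, against -0.01 and 0.02 over all expressed probe sets. None of the 4 passed 1.5-fold with siPOTEF-AS1, where 0.509% of all expressed probe sets were higher in DHT and 0.32% in vehicle. With DHT 1 of the 4 was higher and 1 lower in each arm, against 4.02% higher and 5.4% lower of all expressed probe sets in siPOTEF-AS1 cells and 3.98% and 3.26% in siControl cells. Counts over 4 genes are too small to read against these shares.

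**Figure D4:**
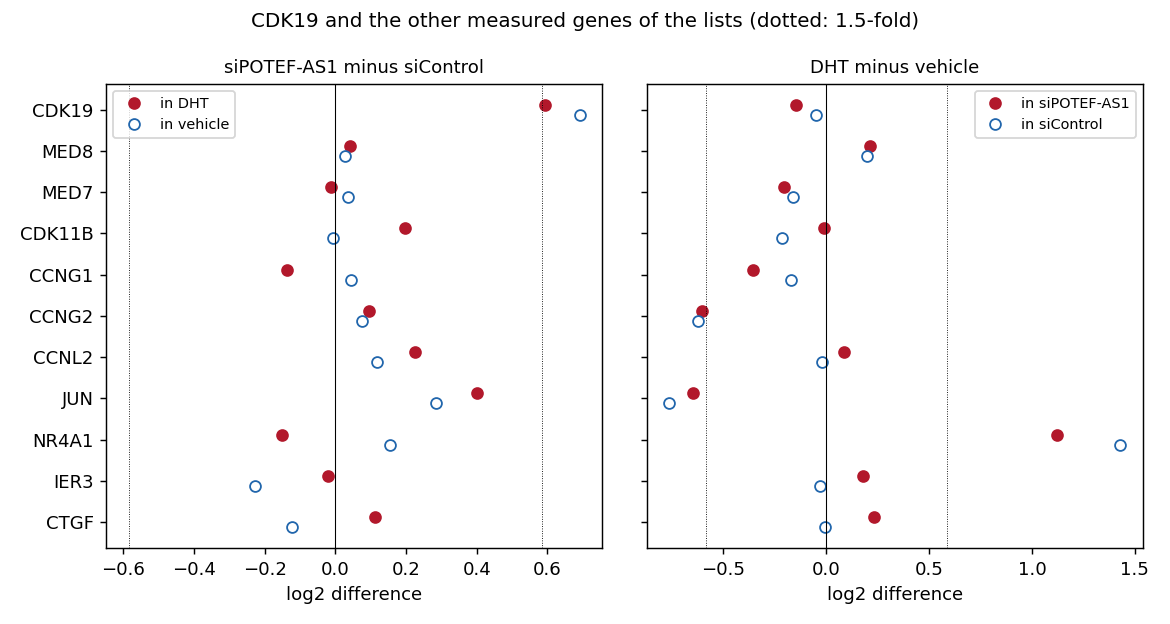
Log2 differences (horizontal axes) of siPOTEF-AS1 minus siControl, in DHT and in vehicle (left), and of DHT minus vehicle, in siPOTEF-AS1 and in siControl cells (right), for CDK19 and the 10 other expressed genes of the lists, each point from 1 pair of arrays. CDK19, which was chosen by its siPOTEF-AS1 differences, alone lies beyond the dotted 1.5-fold line on the left. CCNG2, JUN and NR4A1 lie beyond it on the right.

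A wider set of kinases was added after the data had been seen, the 24 other named genes that the table annotates with serine/threonine kinase activity. Of these, 17 were expressed, and none was 1.5-fold higher or lower with siPOTEF-AS1. Of all expressed probe sets, 0.509% were 1.5-fold higher in DHT and 0.32% in vehicle, while 0.502% and 0.516% were lower. With such shares, 0 among 17 does not depart from the background. The siPOTEF-AS1 differences of the 17 ran between -0.42 and 0.26 in DHT and between -0.13 and 0.23 in vehicle, with medians of 0.00 and 0.10. RIPK4, a kinase of keratinocyte differentiation, had the highest mean among them, 0.23 ± 0.03. That of CDK19 was 0.64 ± 0.05, but CDK19 was chosen by this difference, so that no contrast is read. SGK1, the serum- and glucocorticoid-regulated kinase, differed by -0.42 with siPOTEF-AS1 in DHT. SGK1 had log2 signals of 7.97 in siPOTEF-AS1 DHT cells and 5.07 in siPOTEF-AS1 vehicle cells, and of 8.38 in siControl DHT cells and 5.01 in siControl vehicle cells. Both vehicle signals lay below the floor, so that SGK1 counted as expressed through its DHT arrays alone and no DHT difference is given for it. By their mean DHT difference, 13 of the 17 lay farther from 0 than CDK19, against 64.1% of all expressed probe sets at least as far. SGK1 and MYLK are counted there. The DHT signals of MYLK, 6.65 in siPOTEF-AS1 cells and 6.56 in siControl cells, lay below the floor. Nothing is read from this count.

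The named genes with the profile most like that of CDK19 were found from the distance between profiles over the 4 arrays, each centred on its own mean, among 1343 other named genes expressed at their own floor, a log2 signal of 6.50. Of the 8 nearest, 7 are described, and no order among the 8 is implied. The choice depends on the measure of likeness, since 1 of the 8 was also among the nearest 8 by Pearson correlation. The median distance over all genes compared was 0.70. ZDHHC20, a palmitoyltransferase gene, lay at a distance of 0.23, with log2 signals of 9.10 in siPOTEF-AS1 DHT cells and 9.12 in siPOTEF-AS1 vehicle cells, against 8.69 in siControl DHT cells and 8.52 in siControl vehicle cells. It was 0.41 and 0.60 higher with siPOTEF-AS1 and differed by -0.02 and 0.17 with DHT. The others described were SERPINE2, a serine protease inhibitor gene, the uncharacterised FLJ42627, the arginyltransferase gene ATE1, ARPC3P1, a pseudogene of an actin nucleation subunit, the orphan receptor gene GPR157 and RAPGEF5, an exchange factor gene for Rap proteins. Their distances ran between 0.31 and 0.36. Their mean siPOTEF-AS1 differences, between 0.30 and 0.40, were all smaller than that of CDK19. The signals of SERPINE2 and ARPC3P1 were below 6.82 on all 4 arrays, and FLJ42627 reached it on 1. Since CDK19 was chosen for its siPOTEF-AS1 difference, genes near it share that difference by construction.

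**Figure D5:**
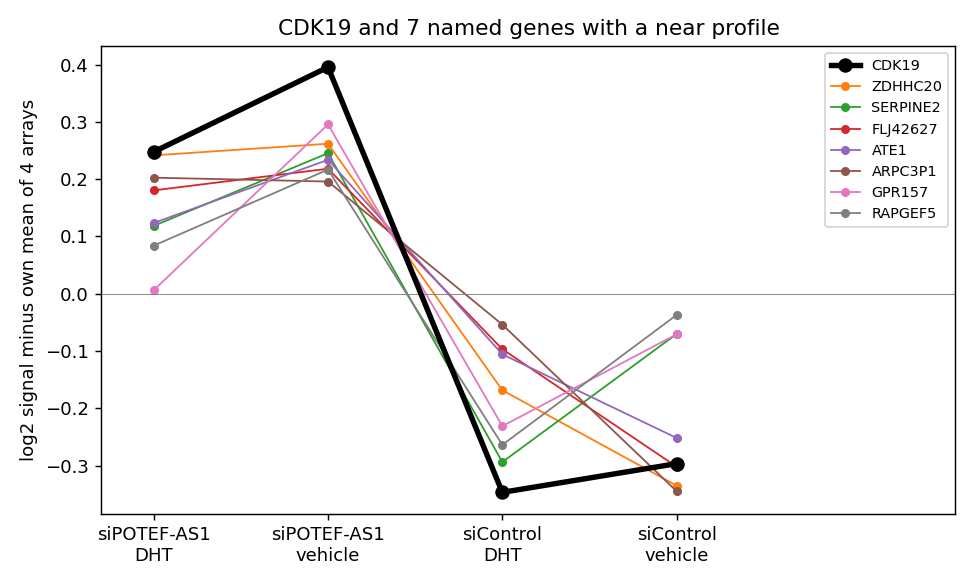
Log2 signal minus the gene's own mean of 4 arrays (vertical axis) for CDK19 (thick line) and 7 named genes with a near profile, in the 4 groups of 1 array each (horizontal axis). All 8 lie above 0 on both siPOTEF-AS1 arrays and below 0 on both siControl arrays.

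The arrays as a whole were alike, with medians between 6.72 and 6.77 and Pearson correlations over the 33297 probe sets between 0.988 and 0.995. POTEF-AS1 was the symbol of no probe set, so that the knockdown itself was not checked, and no marker of luminal prostate cells out of 12 was measured by name, so that the identity of the cells was not checked either. Of the markers of other cells, KRT5 and KRT15 of basal epithelium were measured, and both lay below the floor on all 4 arrays. A change in all RNA per cell cannot be seen after RMA.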

How the data were processed

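RNA of 4 LNCaP samples was measured on Affymetrix arrays. Per the submitters' processing notes, the authors used RMA and Affymetrix Expression Console (versions not given in the sources used here) for the log2 signals they deposited, and a second deposited table differed from the first by at most 1.78e-15. Samples were grouped by siRNA and hormone from the labels, 1 array per group, so no comparison of 2 arrays could be tested and their number limits the precision.

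Of 26722 annotated probe sets, 2540 of the table's 33297 were named by 1 symbol there and 156 by RefSeq accession (assembly GRCh38.p14). A further 55 with several symbols and 19068 with a UCSC identifier alone stayed unnamed. Where a gene had several probe sets, that with the highest mean stood for it. Probe sets of identical values counted once, leaving 26187, and the floor was the 50th percentile of their values. Differences and ranks were computed with pandas 2.3.3 and numpy 2.4.6, and trends removed with statsmodels 0.14.6. The call in both siPOTEF-AS1 pairs, the centring and the removal of trends were tested on simulated data. The changes planted for that call were larger than those of CDK19. Ranks, likeness and promoter motifs were not tested in this way.

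CDK19, the gene lists (134 other genes, 12 measured by name) and the thresholds were chosen with earlier results of these data known. Named genes are CDK19, measured list genes, the 8 nearest profiles (1 of them is not reported here), neighbours within 1 Mb and neighbours in rank. Of the latter, TNFSF18 above and ID2, SP140L and AGR2 below are given. Alternatives were the scaling of the arrays, the floor, the fold, the measure of likeness and the other table.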

Additional observations from a re-analysis of the deposited data

Results flagged for a closer look

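With 1 array per group, an effect of opposite sign in both arms is easily met, and none of the following differences was tested. CDK19 itself had the same sign in both arms of each comparison, but was chosen for alike siPOTEF-AS1 differences. Among 21 expressed genes and probe sets, each looked at over siPOTEF-AS1 and over DHT, 15 pairs of effects had opposite signs. Of these, 7 were over siPOTEF-AS1 and 8 over DHT. Some effects lay near 0, such as -0.012 and 0.035 for MED7 with siPOTEF-AS1. The share over all expressed probe sets is not given here, so that nothing is read from the count.

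SP140L differed most, by 1.29 between its siPOTEF-AS1 differences in DHT and in vehicle, which is by construction also the difference of its DHT responses. The miscellaneous RNA beyond the 3′ end of CDK19 (ENST00000485298) differed by 0.47 in the same way and CTGF by 0.24. For siPOTEF-AS1 in DHT minus vehicle, the values were 0.20 for CDK11B, -0.047 for MED7, -0.18 for CCNG1 and -0.31 for NR4A1. For the DHT difference in siPOTEF-AS1 minus siControl cells, they were 0.11 for CCNL2, 0.21 for IER3, -0.19 for ZDHHC20, -0.24 for FLJ42627 and -0.26 for ATE1.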

How the results depend on the processing

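The 4 differences of CDK19, their means and the difference of the DHT responses kept their direction under all 4 alternatives run. These were centring on medians, quantile normalization applied again, removal of the intensity trend and the second deposited table. The second table holds the same values apart from rounding, so that its result was fixed in advance. With the arrays centred on their medians the siPOTEF-AS1 difference was 0.75 in vehicle and 0.57 in DHT, below 1.5-fold, and the difference of the DHT responses was -0.17. With the intensity trend removed, the DHT difference in siPOTEF-AS1 cells was -0.089, the mean DHT difference -0.061 and the difference of the DHT responses -0.055. Centring moved the siControl DHT difference to -0.011. The share of probe sets at 1.5-fold the same way in both pairs was 0.102%, 0.223% over named genes only and 0 at 2-fold. The rank of CDK19 by its mean difference was 9 of 13747, 26 without a floor, 5 with the floor at the 75th percentile and 2 among named genes. Of the 8 nearest profiles 1 was shared when likeness was a Pearson correlation. Centring turned the split of probe sets at 1.5-fold with siPOTEF-AS1 in vehicle, 44 higher and 71 lower, into 80 and 48. The causes were not tested. No paired analysis was possible because the labels number no replicates that groups share and each group had 1 array. The pairs matched by hormone or by siRNA are those whose means are given, with no test since CDK19 was chosen on them. Leaving out an array would have removed a group. No intensity over background was used here, so the floor stands in for detection.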
